A study of Camellia sinensis with 6 samples.

Results

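The unigenes described here are those that the deposited annotation assigns to the KEGG ortholog K05278, flavonol synthase, in leaves of ‘Huangjinya’, a tea (Camellia sinensis) cultivar with yellow young leaves that turn green when light is weak. Of the 127252 unigenes in the table, 20 carried this ortholog, and all of them are accounted for below. The rule used only the annotation and no expression value. The plants were 2 years old and grew in one field. One group stood for 10 days under a single-layer net that lowered the light by about 45%, and the leaves of these shaded plants gave the libraries Y+S1, Y+S2 and Y+S3. The other group had no net, and its leaves gave the sunlight libraries Y1, Y2 and Y3. Where 3 values stand for a group, they follow this order of libraries. RNA was taken from the leaf in the third place below the shoot tip, with different plants for each replicate, so the libraries hold all cell types of the leaf. Fewer cells of a type and less RNA per cell cannot be told apart in such samples.

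Flavonol synthase (FLS) is a 2-oxoglutarate- and iron-dependent dioxygenase. It oxidizes dihydroflavonols to the flavonols kaempferol, quercetin and myricetin, which absorb ultraviolet light and occur in tea leaves mostly as glycosides. Its substrates are also those of dihydroflavonol reductase (DFR), which leads towards catechins and anthocyanins, so that both enzymes draw on one pool. SRG1 is a protein of the same dioxygenase superfamily, named in Arabidopsis after its expression in senescing organs, and its reaction in tea is not established. Other relatives in this superfamily are codeine O-demethylase of opium poppy, S-norcoclaurine synthase of Coptis and the gibberellin 2-oxidases, which inactivate the hormone gibberellin.

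The ortholog number covered proteins of several kinds. By the name of the best hit in the NR protein database, 5 unigenes were FLS-named, 7 were SRG1-named and 8 had another name or none of meaning. Among the best Swiss-Prot hits were flavonol synthase for 5 unigenes, protein SRG1 for 8, codeine O-demethylase for 3 and other proteins for 4. The score of the KEGG match was 95.9 to 520 for the FLS-named unigenes, 138 to 224 for the SRG1-named ones and 54.3 to 216 for the others. The highest score was that of CL8169.Contig1 at 520, followed by 358 for Unigene28611. The lower scores among the FLS-named unigenes belonged to short sequences, such as Unigene10360 with 341 nt and a score of 95.9. The name flavonol synthase therefore rests on the best protein hits for 5 of the 20 unigenes, and the rest are called K05278 unigenes here. Unigene28611 and CL8169.Contig1 both had an FLS of Camellia sinensis as best hit, but different database records of it.

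The unigenes were 251 to 1910 nt long, and the 4 shortest had 251 to 481 nt. Names of the form CL8169.Contig1 mark contigs of a cluster of similar sequences, and names of the form Unigene28611 mark single sequences. In the deposited table each name ends in _All, which is left out here. There were 12 contigs from 8 clusters and 8 single unigenes, and the clusters CL8169, CL6306, CL4675 and CL4331 had a pair of contigs each. Only fragments that aligned to a single unigene were counted, so the split between the contigs of a pair is less certain than the value of a single unigene. The 2 longest members, Unigene27476 and CL8477.Contig3, had glutamine synthetase records of Camellia as best nucleotide hits beside their dioxygenase protein hits. Whether fragments of another gene were counted in them was not tested. No genome position is given, because the unigenes were assembled from the reads without a genome.

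The study gave quantitative PCR primers for several unigenes, among them the SRG1 contig CL6306.Contig1 and the FLS contig with the highest KEGG score. Only those of the FLS contig are shown. The study used them to measure this contig, whose levels did not overlap between the groups. Whether they also amplify Unigene28611 was not checked. The capitals mark the last 5 bases at the 3′ end of each primer, from which extension starts.
CL8169.Contig1 forward primer: gcatgaggtcaaggagGCTGT
CL8169.Contig1 reverse primer: gacaatcagggcattagGGATG

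The libraries held 10022397 to 18742989 counted fragments. At this depth a count of 0 stands for at most 3 fragments by counting error alone, or 0.160 CPM (the count scaled to the total of its library) in the deepest and 0.299 CPM in the shallowest library. Y+S3 and Y1 stood apart from the other libraries of their groups, and the study left both out of its own test. The share of counts on long unigenes (3000 nt and over) was 4.77% in Y+S3 and 5.54% in Y1, against 6.77% to 9.41% in the other 4 libraries. Results are therefore given over all 6 libraries and over the 4 that the study tested. The codes in the descriptions of Y+S1 and Y3 disagree with the key of the table, which was followed. Both conflicts stay within a group, so the comparison of all 6 libraries does not depend on them, whereas that of 4 libraries does. Under the key, the totals of counted fragments within each group have the same order as the clean reads that the study lists. The 57 unigenes of light-harvesting proteins and the RuBisCO small subunit summed to 42406 to 78226 FPKM (fragments per kilobase of unigene and scaled to the depth of the library) in shaded leaves and to 61008 to 64129 FPKM in sunlight leaves. The mesophyll markers of a leaf were thus abundant in every library.

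The most abundant member was Unigene28611, an FLS-named unigene of 1333 nt that ranked 86 among all unigenes by mean FPKM. Its level was 588, 1218 and 760.5 FPKM in shaded leaves, and 749, 819.5 and 797 FPKM in sunlight leaves. The shaded libraries lay on both sides of the sunlight ones, so the groups overlapped. The means were 855 ± 325 FPKM in shaded and 788.5 ± 36.2 FPKM in sunlight leaves (SD, n = 3 each). The log2 fold change was 0.10 (SE 0.47) over 6 libraries and 0.08 (SE 0.36) over 4, with adjusted p-values of 0.968 and 0.949 from edgeR’s quasi-likelihood test. In FPKM the spread of this unigene was larger among the shaded than among the sunlight libraries. In normalized CPM (scaled by TMM over 6 libraries) the spreads were less unequal. The means there were 1168 ± 402 in shaded and 1089 ± 222 in sunlight leaves (SD, n = 3 each).

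CL8169.Contig1, the other long FLS-named unigene (1302 nt), was second in both groups and had lower values under shading. It had 51.0, 105.1 and 37.6 FPKM in shaded leaves, against 256, 304 and 278 FPKM in sunlight leaves. Every shaded library lay below every sunlight library, and the mean of 64.6 ± 35.7 FPKM in shaded leaves was 0.231 of the 279 ± 23.9 FPKM in sunlight leaves. The log2 fold change was -2.22 (SE 0.40) over 6 libraries and -1.98 (SE 0.35) over 4. edgeR’s quasi-likelihood test gave adjusted p-values of 0.485 and 0.118, which do not pass 0.05, whereas DESeq2 on the same counts gave 9.45e-05 and 1.89e-05.

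The 3 shorter FLS-named unigenes had the same order of groups. CL8169.Contig2 (481 nt) had 11.8, 26.0 and 8.73 FPKM in shaded leaves, against 64.1, 66.5 and 55.6 FPKM in sunlight leaves. Unigene10360 (341 nt) had 5.48, 11.2 and 2.36 FPKM in shaded leaves, against 72.6, 45.2 and 33.1 FPKM in sunlight leaves. Unigene34349 (352 nt) had 9.55, 11.2 and 3.05 FPKM in shaded leaves, against 22.98, 31.1 and 33.2 FPKM in sunlight leaves. None of the 3 had overlapping groups, and in each of them Y+S2 was the highest and Y+S3 the lowest shaded library, as for CL8169.Contig1. By means, the level in shaded leaves was 0.250 of that in sunlight leaves for CL8169.Contig2, 0.126 for Unigene10360 and 0.273 for Unigene34349. The log2 fold changes over 6 libraries were -2.14 (SE 0.40), -3.24 (SE 0.60) and -1.97 (SE 0.39) in that order, and over 4 libraries they were -1.79 (SE 0.36), -2.33 (SE 0.38) and -1.68 (SE 0.27). The adjusted p-values of the quasi-likelihood test were 0.485 over 6 libraries for each of them, and 0.150, 0.109 and 0.106 over 4. All 3 passed DESeq2 in both fits, with adjusted p-values of 0.00256, 0.000411 and 0.00175 over 6 libraries and 0.00217, 0.000174 and 0.00667 over 4.

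**Figure D1:**
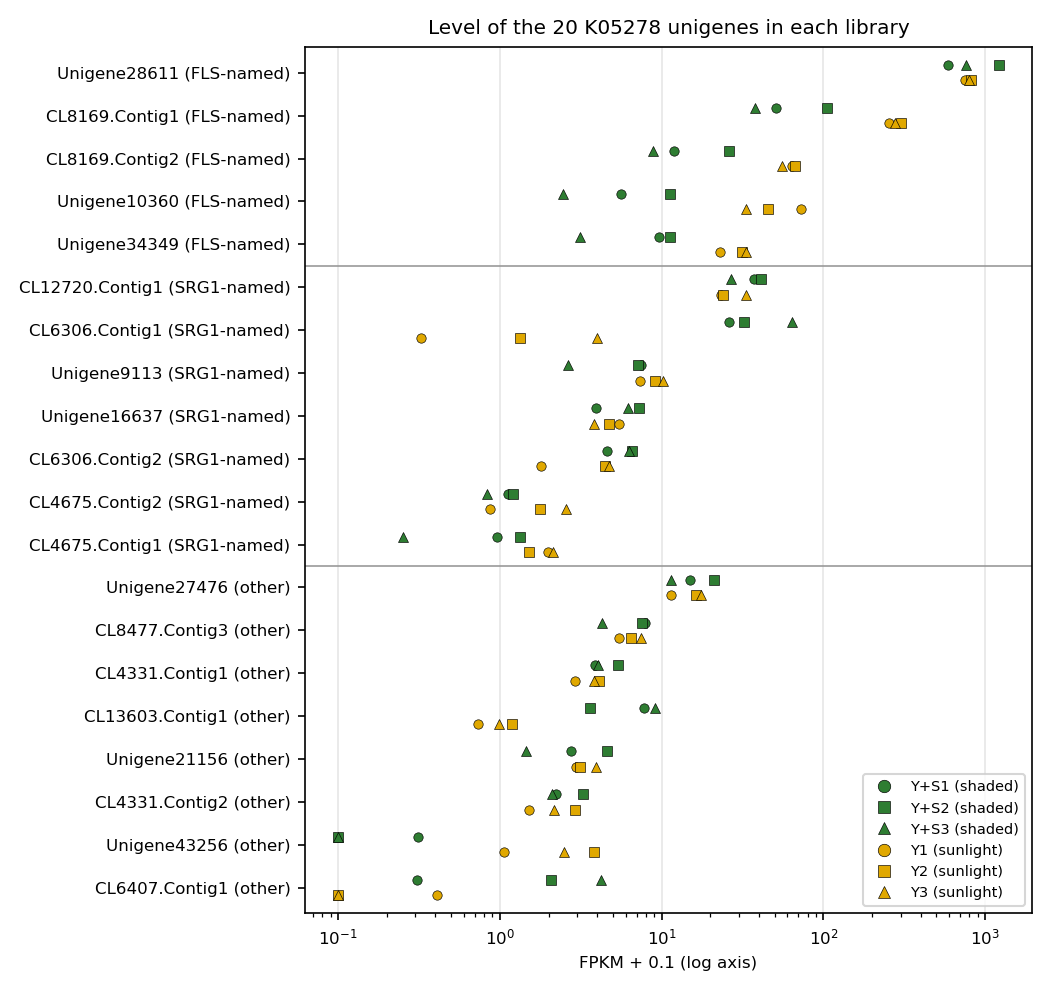
Level of each of the 20 K05278 unigenes in each library, as FPKM + 0.1 on a log axis, with shaded libraries in green above sunlight libraries in yellow. The FLS-named unigenes other than Unigene28611 lay lower in all shaded libraries, while CL6306.Contig1 had 25.9 to 63.7 FPKM in shaded and 0.225 to 3.86 FPKM in sunlight libraries.

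Within a library, the short contigs can be set against CL8169.Contig1. The ratio of CL8169.Contig2 to CL8169.Contig1 in FPKM was 0.231, 0.248 and 0.232 in shaded leaves, and 0.251, 0.219 and 0.200 in sunlight leaves, so that the contigs of this cluster kept nearly one ratio. The ratio of Unigene10360 to CL8169.Contig1 was lower under shading, at 0.107, 0.106 and 0.0627 against 0.284, 0.149 and 0.119 in sunlight leaves. The nearest values, 0.107 in Y+S1 and 0.119 in Y3, were close. The extremes were in Y+S3, where Unigene10360 had 9 counts, and in Y1, the libraries that stood apart. This difference in ratio was not tested. For Unigene34349 the ratios overlapped, at 0.187, 0.107 and 0.0810 in shaded leaves, and 0.0899, 0.102 and 0.119 in sunlight leaves. Whether these short sequences are pieces of the transcript of CL8169.Contig1 was not tested, so they are not counted as independent genes.

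The pair of abundant FLS unigenes therefore stood in different proportions in the groups. Unigene28611 had 11.5, 11.6 and 20.2 times the FPKM of CL8169.Contig1 in shaded leaves, against 2.93, 2.70 and 2.86 times in sunlight leaves. On the log2 scale with a pseudocount of 0.5 FPKM, the ratio was 3.79 ± 0.46 in shaded and 1.50 ± 0.06 in sunlight leaves (SD, n = 3 each), a difference of 2.29. The sunlight plants were close to each other, and no shaded library approached them. The exact two-sided permutation test gave p = 0.1, the smallest that 3 against 3 libraries allow, and 0.125 after adjustment over the 5 ratios and sums tested here. This ratio was chosen after the values had been seen. It does not depend on the scaling between libraries.

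CL6306.Contig1, the SRG1 contig of 1421 nt, was the member with the largest positive fold change. Its counts were 691, 629 and 1014 in shaded leaves, against 4, 19 and 55 in sunlight leaves. This was 25.9, 32.4 and 63.7 FPKM under shading and 0.225, 1.24 and 3.86 FPKM in sunlight. The groups were far apart, although both libraries that stood apart held the extremes, with the highest value in Y+S3 and the lowest in Y1. The mean was 40.7 ± 20.2 FPKM in shaded leaves, where the contig ranked 3 of 20. In sunlight leaves the mean was 1.78 ± 1.88 FPKM, and the contig ranked 16 of 20. Its normalized CPM (scaled by TMM over 6 libraries) was 67.9 ± 56.7 in shaded leaves (SD, n = 3). In sunlight leaves it was 2.25 ± 2.17 (SD, n = 3). The groups did not overlap on this scale either, but the shaded libraries differed more from each other than in FPKM. Y+S3 had the lowest TMM factor of the 6 libraries, 0.695, which raised its value there. The log2 fold change was 4.90 (SE 0.96) over 6 libraries and 3.49 (SE 0.44) over the 4 without Y+S3 and Y1. With single libraries left out of the 6, it was lowest without Y+S3 (3.97) and highest without Y3 (5.96). The quasi-likelihood test of edgeR gave adjusted p-values of 0.485 and 0.0675, and DESeq2 gave 4.04e-05 and 1.26e-11. Markers of leaf senescence and chlorophyll breakdown were summed beside it. The 10 unigenes of that list, 6 of them with a mean of at least 1 FPKM and 1 at 0 in every library, summed to 71.7, 66.5 and 53.9 FPKM in shaded leaves, against 20.98, 39.8 and 53.6 FPKM in sunlight leaves. The 63 unigenes of vascular and secondary wall markers, none of them at 0 throughout, summed to 204 to 730.3 FPKM in shaded and 181 to 225 FPKM in sunlight leaves. The 35 unigenes of meristem markers summed to 132.5 to 219 FPKM in shaded and 131 to 165 FPKM in sunlight leaves. The part of these cells or states in the SRG1 difference was not tested.

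The second contig of the same cluster, CL6306.Contig2 (1273 nt), differed less. Its counts were 108, 112 and 88 in shaded leaves, and 27, 60 and 59 in sunlight leaves, or 4.53, 6.44 and 6.18 FPKM against 1.70, 4.37 and 4.62 FPKM. In FPKM the groups overlapped slightly, since Y3 exceeded Y+S1, and in normalized CPM all shaded libraries were higher. The log2 fold change was 0.82 (SE 0.44) over 6 libraries and 0.22 (SE 0.28) over 4, with adjusted p-values of 0.647 and 0.767 from the quasi-likelihood test. The FPKM of CL6306.Contig1 was 5.73, 5.03 and 10.3 times that of CL6306.Contig2 in shaded leaves, and 0.133, 0.284 and 0.835 times in sunlight leaves. The more abundant contig of the cluster was thus a different one in each group. The log2 ratio was 2.64 ± 0.55 in shaded and -1.11 ± 0.76 in sunlight leaves (SD, n = 3 each), a difference of 3.74, with an exact permutation p of 0.1 (adjusted 0.125). This ratio, too, was chosen after the values had been seen, and fragments common to both contigs were not counted.

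SRG1 set against FLS gave the widest ratio. CL6306.Contig1 had 0.509, 0.308 and 1.70 times the FPKM of CL8169.Contig1 in shaded leaves, whereas in sunlight leaves it had 0.000881, 0.00409 and 0.0139 times. In Y+S3 the SRG1 contig was the more abundant of the pair. The log2 ratio with a pseudocount of 0.5 FPKM was -0.63 ± 1.25 in shaded and -7.30 ± 1.24 in sunlight leaves (SD, n = 3 each), a difference of 6.67. Without Y+S3 and Y1 the difference was 5.40. The exact permutation test gave p = 0.1 (adjusted 0.125), again the smallest value that this design allows.

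**Figure D2:**
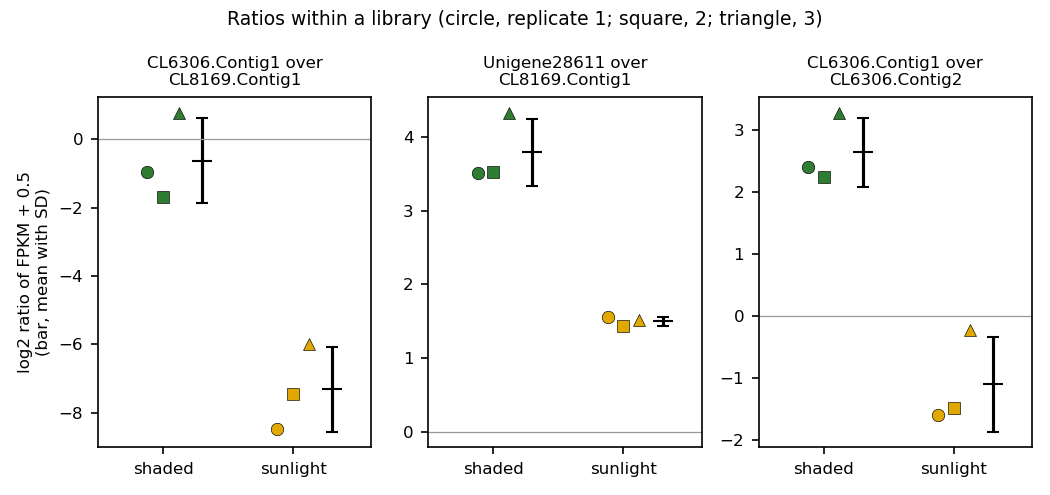
Log2 ratios within a library for 3 pairs of unigenes, each computed on FPKM + 0.5, with shaded left of sunlight and bars for the mean with SD over 3 libraries. The groups did not overlap in any panel, and the ratio of Unigene28611 to CL8169.Contig1 varied least in sunlight, at 1.50 ± 0.06.

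Of the other SRG1-named unigenes, 3 single sequences or contigs had log2 fold changes between -0.72 and 0.42. CL12720.Contig1 (1274 nt) was the most abundant of them, with 37.4, 41.1 and 26.9 FPKM in shaded leaves and 23.3, 23.9 and 33.4 FPKM in sunlight leaves. The groups overlapped in FPKM, but not in normalized CPM (scaled by TMM over 6 libraries), with 45.3 ± 4.65 in shaded and 34.8 ± 5.56 in sunlight leaves (SD, n = 3 each). Its log2 fold change was 0.38 (SE 0.30) over 6 libraries and 0.42 (SE 0.24) over 4. In shaded leaves its mean of 35.1 ± 7.34 FPKM was within the spread of that of CL6306.Contig1, while in sunlight leaves its mean was 26.8 ± 5.66 FPKM. Unigene9113 (1399 nt) had 7.40, 7.01 and 2.55 FPKM in shaded leaves and 7.21, 8.95 and 10.1 FPKM in sunlight leaves, with log2 fold changes of -0.72 and -0.44 over 6 and 4 libraries. Its groups, too, overlapped in FPKM only, and its normalized CPM was 7.52 ± 2.12 in shaded and 12.4 ± 0.934 in sunlight leaves (SD, n = 3 each). Unigene16637 (698 nt) had 3.82, 7.13 and 6.14 FPKM in shaded leaves and 5.39, 4.65 and 3.72 FPKM in sunlight leaves. It overlapped between the groups on both scales, with log2 fold changes of 0.29 and 0.30. None of these 3 passed the quasi-likelihood test or DESeq2 in either fit.

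The CL4675 pair was at the lower end of the family. CL4675.Contig1 (1185 nt) had 19, 20 and 2 counts in shaded leaves and 28, 18 and 24 counts in sunlight leaves. Its FPKM did not overlap between the groups, at 0.151 to 1.24 under shading and 1.41 to 2.02 in sunlight, with the lowest value in Y+S3. The log2 fold change was -1.39 (SE 0.55, adjusted p = 0.607) over 6 libraries and -0.77 (SE 0.44, adjusted p = 0.455) over 4 by the quasi-likelihood test. CL4675.Contig2 (726 nt) had 14, 11 and 6 counts in shaded leaves and 7, 13 and 18 counts in sunlight leaves, and it passed the filter on low counts over 4 libraries only, with a log2 fold change of -0.98 (SE 0.48).

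Among the 8 members with other names, CL13603.Contig1 stood out. Its best NR hit was an unnamed predicted protein of Populus, its best Swiss-Prot hit was protein SRG1, and its best nucleotide hit was a leucoanthocyanidin dioxygenase-like transcript of grapevine. It had 147, 49 and 102 counts in shaded leaves, against 8, 12 and 9 counts in sunlight leaves. In FPKM this was 7.72, 3.53 and 8.97 under shading and 0.631, 1.10 and 0.884 in sunlight. No shaded library came near the sunlight range, and the mean was 7.75-fold higher in shaded leaves. The log2 fold change was 3.11 (SE 0.62) over 6 libraries and 2.48 (SE 0.54) over 4. Over 4 libraries it was 1.66 without Y+S1, the library with the most counts of this contig, and 2.98 without Y+S2. The adjusted p-values were 0.496 and 0.157 from edgeR’s quasi-likelihood test and 0.00268 and 0.0122 from DESeq2. By mean FPKM it ranked 8 of 20 in shaded leaves and 19 of 20 in sunlight leaves.

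A further 5 of these members had levels that overlapped between the groups. Unigene27476, whose best protein hit is a probable 2-oxoglutarate- and iron-dependent dioxygenase, had 15.8 ± 4.91 FPKM in shaded and 15.0 ± 3.20 FPKM in sunlight leaves (SD, n = 3 each). CL8477.Contig3, named after a homolog of the ethylene-forming 1-aminocyclopropane-1-carboxylate oxidase, had 6.50 ± 1.997 FPKM in shaded and 6.36 ± 1.01 FPKM in sunlight leaves. CL4331.Contig1 and CL4331.Contig2, with protein SRG1 as best Swiss-Prot hit, had 4.31 ± 0.81 and 2.42 ± 0.63 FPKM in shaded leaves against 3.51 ± 0.60 and 2.10 ± 0.70 FPKM in sunlight leaves. Unigene21156, with S-norcoclaurine synthase as best Swiss-Prot hit, had 2.83 ± 1.57 FPKM in shaded and 3.23 ± 0.50 FPKM in sunlight leaves. Their log2 fold changes lay between -0.30 and 0.32 over 6 libraries.

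The last 2 members did not pass the filter on low counts in either fit, so they have values but no test. CL6407.Contig1 (519 nt, best Swiss-Prot hit protein SRG1) had 2, 14 and 24 counts in shaded leaves and 2, 0 and 0 counts in sunlight leaves. Unigene43256 (251 nt), a match to gibberellin 2-oxidase, had 1, 0 and 0 counts in shaded leaves and 3, 10 and 6 counts in sunlight leaves. Counts of this size, at or near the limit of 3 counts in one group, give no usable fold change.

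**Figure D3:**
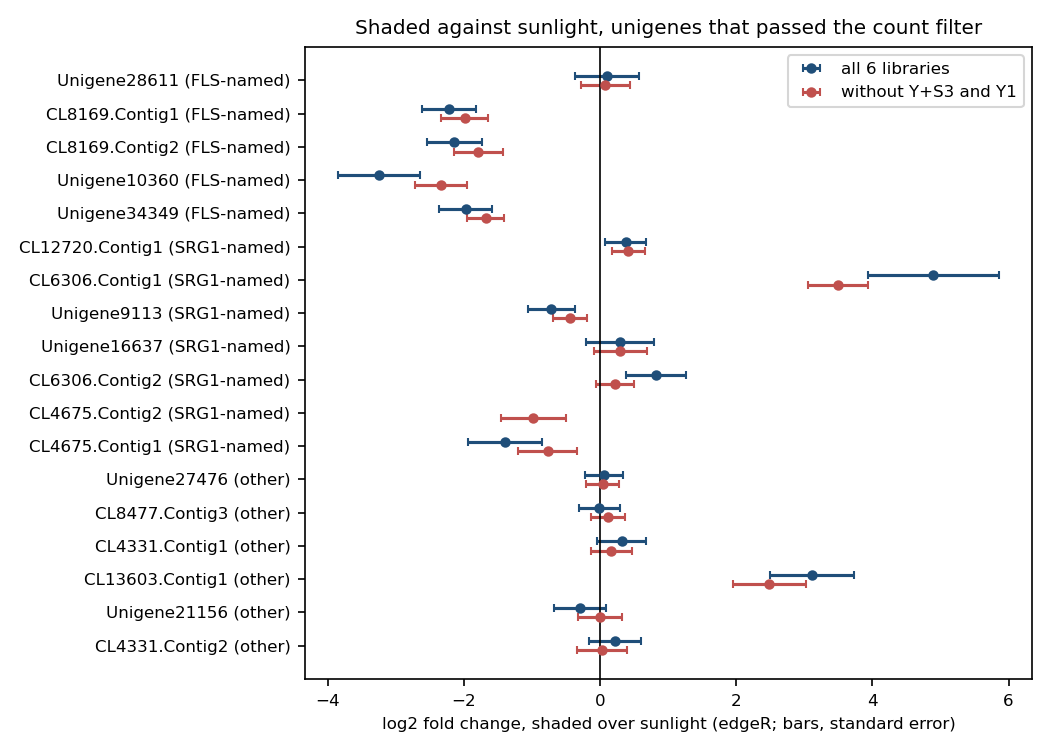
Log2 fold change of shaded over sunlight for each K05278 unigene that passed the filter on low counts, from edgeR over all 6 libraries and without Y+S3 and Y1, with bars for the standard error. Of the FLS-named unigenes 4 lay at or below -1.68 in both fits, and CL6306.Contig1 lay at 4.90 and 3.49.

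Counted over the family, 17 of the 20 members were tested over 6 libraries and 18 over 4. The quasi-likelihood test called 0 of them at an adjusted p of 0.05 in either fit, against 0.0% of all 59300 unigenes tested over 6 libraries and 0.0529% of the 64281 tested over 4. At an unadjusted p below 0.05 it had 7 members over 6 libraries (2 higher and 5 lower under shading; 8.06% of all unigenes tested) and 6 over 4 libraries (2 higher and 4 lower; 14.9% of all). DESeq2 called 6 members, 2 higher and 4 lower under shading, and these were the same 6 unigenes in both fits. Of all unigenes tested it called 0.966% over 6 libraries (0.624% higher and 0.342% lower) and 1.59% over 4 (0.761% higher and 0.831% lower). The likelihood ratio test of edgeR called the same 6 members in both fits, against 0.884% and 3.35% of all. Of the 6, CL6306.Contig1 and CL13603.Contig1 were higher under shading. CL8169.Contig1, CL8169.Contig2, Unigene10360 and Unigene34349 were lower, and the short ones among these 4 are not counted as independent genes. The choice of test thus decides whether the 6 members are called, while their fold changes hardly differed between the tests. Over 4 libraries the quasi-likelihood test also made calls with 1 shaded library left, 5 members without Y+S1 (5.03% of all unigenes) and 6 without Y+S2 (9.55% of all). At the stricter threshold of the study, which asks for an adjusted p under 0.001 and at least a doubling or halving (1 on the log2 scale), the quasi-likelihood test called 0 members, and DESeq2 called CL6306.Contig1, CL8169.Contig1 and Unigene10360 in both fits, against 0.18% of all unigenes over 6 libraries and 0.395% over 4.

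The normalized CPM of the groups did not overlap for 10 of the 17 members tested over 6 libraries. In 4 of them all shaded libraries were higher, against 6.67% of all unigenes tested, and in 6 all were lower, against 7.28%. The 3 members that failed the filter are not in this count. The median log2 fold change of the members tested was 0.06 over 6 libraries and 0.03 over 4, against 0.04 and 0.03 for all unigenes tested. The family as a whole was centred close to where all unigenes were. The FLS-named members had medians of -2.14 and -1.79 over 6 and 4 libraries with 5 tested in each fit. These medians and the counts above take CL8169.Contig2, Unigene10360 and Unigene34349 singly. Whether those are pieces of the transcript of CL8169.Contig1 was not tested, so the medians may rest largely on a single transcript. Unigene28611, the most abundant, had 0.10 and 0.08. The SRG1-named members had medians of 0.34 with 6 tested and 0.22 with 7 tested, and the others had 0.14 and 0.08 with 6 tested in each.

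The summed level of the family overlapped between the groups. All 20 members together had 786, 1515 and 955 FPKM in shaded leaves, and 1230.3, 1349 and 1295 FPKM in sunlight leaves. On the log2 scale this was 10.03 ± 0.49 in shaded and 10.33 ± 0.07 in sunlight leaves (SD, n = 3 each), a difference of -0.31 with an exact permutation p of 0.4 (adjusted 0.4). It was -0.10 without Y+S1 and -0.58 without Y+S2, so the size of this difference rests on single shaded libraries. The shares of its parts did not overlap between the groups. Unigene28611 held 74.8%, 80.4% and 79.7% of it in shaded leaves, against 60.9%, 60.7% and 61.5% in sunlight leaves. The other 4 FLS-named unigenes summed to 77.8, 153 and 51.7 FPKM under shading and to 415, 446 and 400.3 FPKM in sunlight. The SRG1-named unigenes held 10.3%, 6.37% and 11.2% in shaded leaves and 3.29%, 3.42% and 4.64% in sunlight leaves. Their mean share was 9.27% ± 2.55 in shaded and 3.78% ± 0.745 in sunlight leaves (SD, n = 3 each), a difference of 5.49 percentage points (exact permutation p = 0.1, adjusted 0.125). When CL6306.Contig1 was taken out, the SRG1-named unigenes summed to 55.0, 64.0 and 42.7 FPKM under shading and 40.2, 44.9 and 56.3 FPKM in sunlight, which overlapped.

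**Figure D4:**
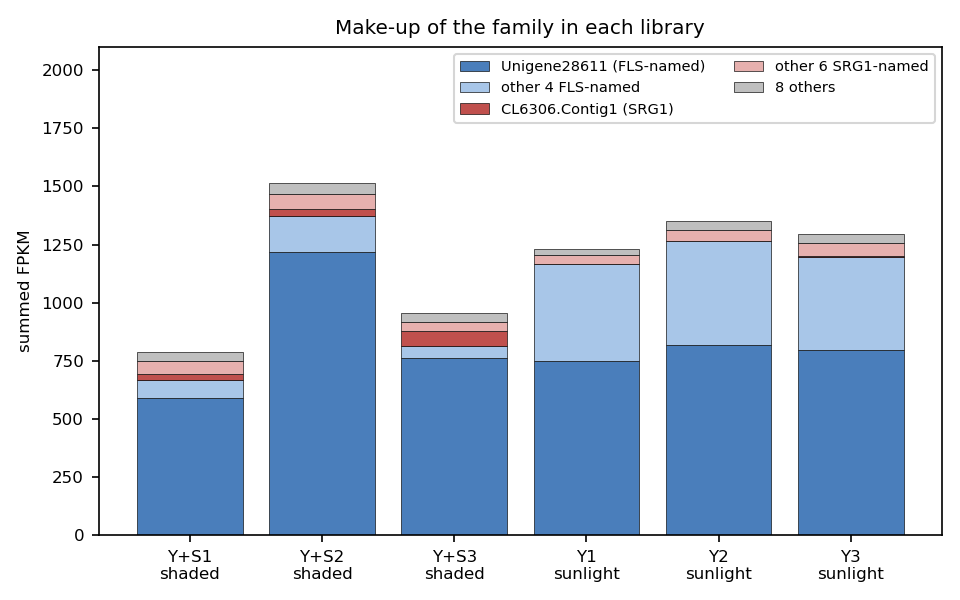
Summed FPKM of the 20 K05278 unigenes in each library, stacked by unigene or group, with the 3 shaded libraries left of the 3 sunlight libraries. Unigene28611 held at least 74.8% of the sum in the shaded libraries and at most 61.5% in the sunlight libraries, and the part of CL6306.Contig1 is visible mainly under shading.

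The rest of the flavonoid pathway was read from the same fits. The list held 14 KEGG orthologs, of which 13 had a unigene, with 128 unigenes in all and no unigene for the flavonol 3-O-glucosyltransferase number. The quasi-likelihood test called 0 of the 88 tested over 6 libraries and 0 of the 94 tested over 4. Unadjusted p-values below 0.05 were found for 24 (17 higher and 7 lower under shading) over 6 libraries and 29 (23 higher and 6 lower) over 4, against 8.06% and 14.9% of all unigenes tested. DESeq2 called 2 higher and 0 lower over 6 libraries, and 9 higher and 3 lower over 4, against 0.966% and 1.59% of all. With 1 shaded library left in the fit of 4, the quasi-likelihood test called 27 without Y+S1 (5.03% of all) and 24 without Y+S2 (9.55% of all). The median log2 fold change of the list was 0.18 over 6 libraries and 0.22 over 4.

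Before flavonol synthase in the pathway stands phenylalanine ammonia-lyase (PAL), which opens the phenylpropanoid pathway. Its fold changes were above 0 for 21 of 22 unigenes tested over 6 libraries and 24 of 24 over 4. The medians were 0.80 and 0.98. Many of its unigenes were contigs of the cluster CL1403, so they are not counted as independent genes. Its most abundant unigene, Unigene34746, had 58.3 ± 5.99 FPKM in shaded and 25.5 ± 4.01 FPKM in sunlight leaves (SD, n = 3 each), with log2 fold changes of 1.17 (SE 0.40) over 6 libraries and 1.32 (SE 0.26) over 4 and adjusted p-values of 0.564 and 0.141 from the quasi-likelihood test. The vascular and secondary wall markers, whose cells also use this enzyme for lignin, had their highest sums in Y+S1 (730.3 FPKM) and Y+S2 (355 FPKM), against 204 FPKM in Y+S3 and 181 to 225 FPKM in sunlight leaves, and their part in the PAL values was not tested. The most abundant unigenes of the next enzymes, cinnamate 4-hydroxylase (CL1270.Contig4) and 4-coumarate-CoA ligase (Unigene28088), had log2 fold changes of 0.05 (SE 0.32) and 0.58 (SE 0.31) over 6 libraries and -0.08 (SE 0.26) and 0.45 (SE 0.23) over 4. Chalcone synthase, the first enzyme of the flavonoid branch, had fold changes below 0 for 5 of 5 unigenes in both fits. Its medians were -0.20 over 6 libraries and -0.54 over 4. All its unigenes tested were contigs of the clusters CL12980 and CL1795, so they are not counted as independent genes. Its most abundant unigene, CL12980.Contig1, had 1267 ± 384 FPKM in shaded and 1745 ± 186 FPKM in sunlight leaves, with log2 fold changes of -0.35 (SE 0.58) over 6 libraries and -0.83 (SE 0.34) over 4. That of chalcone isomerase, Unigene52428, had -0.01 (SE 0.42) over 6 libraries and -0.31 (SE 0.30) over 4. Flavanone 3-hydroxylase makes the dihydroflavonols on which flavonol synthase acts. Its most abundant unigene, Unigene39726, had 242 ± 67.0 FPKM in shaded and 308 ± 16.01 FPKM in sunlight leaves, and log2 fold changes of -0.40 (SE 0.43) over 6 libraries and -0.25 (SE 0.30) over 4. Flavonoid 3′-hydroxylase adds a hydroxyl group to the B ring. Its most abundant unigene, Unigene28864, had 136 ± 53.8 FPKM in shaded and 406 ± 35.8 FPKM in sunlight leaves, with log2 fold changes of -1.51 (SE 0.50) over 6 libraries and -1.85 (SE 0.38) over 4. The adjusted p-values of the quasi-likelihood test for it were 0.556 and 0.151. For flavonoid 3′,5′-hydroxylase, Unigene8507 had 219 ± 106 FPKM in shaded and 138 ± 32.4 FPKM in sunlight leaves and log2 fold changes of 0.60 (SE 0.43) over 6 libraries and 0.79 (SE 0.34) over 4.

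DFR draws on the same dihydroflavonols as flavonol synthase. Its most abundant unigene, CL9907.Contig5, had 146 ± 17.4 FPKM in shaded and 120.0 ± 17.1 FPKM in sunlight leaves (SD, n = 3 each), with log2 fold changes of 0.34 (SE 0.38) over 6 libraries and 0.12 (SE 0.24) over 4. The DFR unigenes had medians of 0.17 with 12 tested and 0.12 with 13 tested. Leucoanthocyanidin dioxygenase, a relative of flavonol synthase in the same superfamily, had medians of 0.53 over 6 libraries and 1.35 over 4, with 7 tested in each. In both fits 4 of them were above 0 and 3 below, from -0.93 to 5.86 over 6 libraries and -1.21 to 2.98 over 4. The highest in both fits was CL4057.Contig1, with adjusted p-values of 0.512 and 0.117 from the quasi-likelihood test. Some of the unigenes were contigs of the cluster CL4643, so they are not counted as independent genes. The most abundant unigene of this enzyme, CL4643.Contig2, had 20.2 FPKM in shaded and 28.9 FPKM in sunlight leaves (means of 3), with log2 fold changes of -0.61 (SE 0.53) and -0.20 (SE 0.30). Of the reductases that form catechins, the most abundant unigenes were Unigene8934 for leucoanthocyanidin reductase and CL11956.Contig2 for anthocyanidin reductase, with log2 fold changes of -0.23 (SE 0.71) and 0.23 (SE 0.38) over 6 libraries and -0.50 (SE 0.29) and 0.17 (SE 0.29) over 4. The anthocyanidin glucosyltransferase unigene with the highest level, Unigene45651, had 38.3 ± 13.02 FPKM in shaded and 85.0 ± 28.7 FPKM in sunlight leaves, with log2 fold changes of -1.14 (SE 0.33) and -1.18 (SE 0.26) and adjusted p-values of 0.522 and 0.162 from the quasi-likelihood test.

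**Figure D5:**
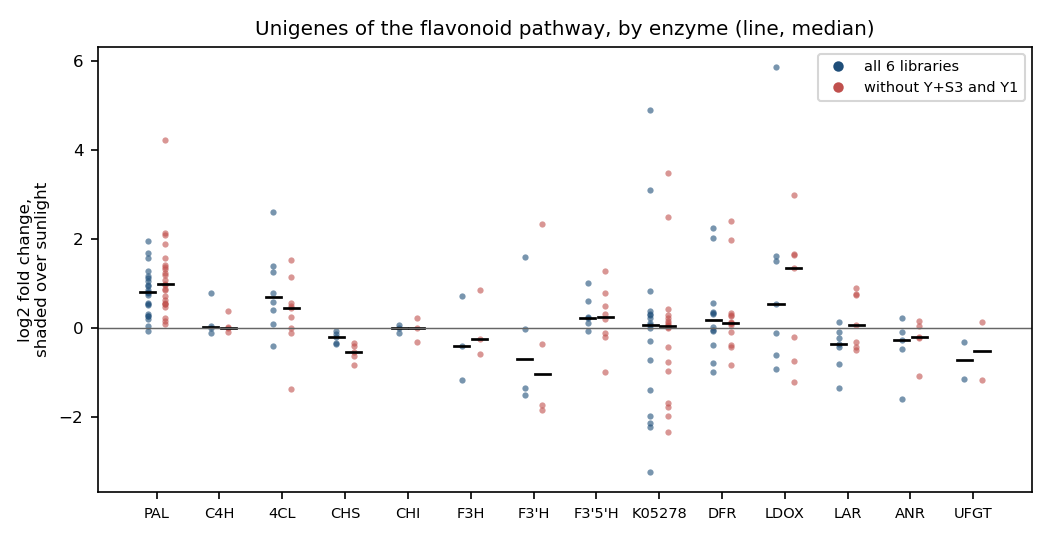
Log2 fold change of shaded over sunlight for the tested unigenes of each enzyme of the flavonoid pathway in pathway order, with K05278 among them, over all 6 libraries (blue) and without Y+S3 and Y1 (red); lines mark medians. The K05278 unigenes ranged from -3.24 to 4.90 over 6 libraries around a median of 0.06.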

How the data were processed

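Leaves of 3 shaded and 3 sunlight replicates, each from different plants, were sequenced by the study as stranded mRNA libraries. The authors assembled the reads of all libraries with Trinity, TGICL and Phrap and deposited, for each unigene, the raw count of uniquely aligned fragments and the FPKM. FPKM recomputed from the deposited counts and lengths differed only by rounding. The aligner, and whether counting used strand, are not given in the sources used here.

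The whole table of counts was used in each fit. Low counts were removed by filterByExpr, libraries were scaled by TMM factors, and edgeR 4.0.16 (R 4.3.3) gave quasi-likelihood tests for the 4 libraries of the study’s own test (Y+S1, Y+S2, Y2 and Y3) and for all 6. Benjamini-Hochberg adjustment covered all unigenes tested, with a threshold of 0.05. The members were read from these fits. The standard errors given with the edgeR fold changes were derived from the test. Each is the size of the log2 fold change divided by the square root of the F statistic. The programs were tested on simulated data. Totals were 10022397 to 18742989 counts per library. Ratios and sums within a library used FPKM, with a pseudocount of 0.5 for log2 ratios, and exact two-sided permutation tests over libraries in Python 3.11.15 with scipy 1.17.1. P-values measure the spread between replicates from different plants within each group. The study describes a shaded and an unshaded group in the same field and does not say that the net was replicated. Shading and place in the field cannot be told apart here.

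The text names every unigene of the ortholog and, of each other pathway enzyme, the unigene with the highest mean FPKM. The members and lists were chosen with earlier results of these data known. Alternatives were DESeq2 1.42.0, the likelihood ratio test, RLE scaling, no filter, limma 3.58.1 on log2(FPKM + 0.1, 0.5 or 1) where the mean FPKM reached 0.5, the study’s threshold (adjusted p of 0.001, log2 fold change of 1; with DESeq2 it was added after the values had been seen), the replicate number as a block and each library left out. Samples with the same replicate number gave no sign of deviating together, but 3 libraries per group are too few to exclude it.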

Additional observations from a re-analysis of the deposited data

How the results depend on the processing

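Over 4 libraries, members called numbered 6 with DESeq2, 6 with the likelihood ratio test and 6 without a filter on low counts, against 0 in the quasi-likelihood test, and 0 to 6 when a library was left out. The calls came without Y+S1 (5) and without Y+S2 (6), where the lone shaded library is assumed to vary like the sunlight ones. Without a filter over 4 libraries, 537 of all 125946 unigenes tested were called higher and 417 lower under shading. Over 6 libraries, members called numbered 6 with DESeq2 and 6 with the likelihood ratio test. Limma called 1 member (CL6306.Contig1) on log2(FPKM + 0.5) and 1 on log2(FPKM + 1). Of all 103280 unigenes, limma called 19 higher and 3 lower on log2(FPKM + 0.5). On log2(FPKM + 1) it called 15 higher and 1 lower. Pathway unigenes called over 4 libraries were 12 with DESeq2, 20 with the likelihood ratio test, 12 without a filter and 0 to 27 when a library was left out. Over 6 libraries DESeq2 and the likelihood ratio test called 2 each. At the study’s threshold the quasi-likelihood test called 0 in each case, and DESeq2 called 3 members over 4 libraries, 3 over 6, and 4 pathway unigenes over 4 and 0 over 6, an alternative chosen after seeing the data. The counts under the other alternatives run were 0. The difference in the SRG1 to FLS log2 ratio was 5.40 without Y1 and Y+S3. The cause of these changes was not tested.

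The difference in the family total ranged from -0.575 to -0.102 when a library was left out. No fold change of the 6 members called by DESeq2 changed sign in the 150 alternatives run. Of the other members, Unigene21156 had log2 fold changes of 0.02903, 0.02865 and 0.02868 over 4 libraries with limma at pseudocounts of 0.5, 0.1 and 1, against -0.0011 in the quasi-likelihood test. Leaving out a library turned the sign of fold changes near 0. Over 4 libraries the ranges were -0.42 to 0.43 for Unigene28611, -0.10 to 0.60 for Unigene16637, -0.12 to 0.16 for Unigene27476, -0.039 to 0.24 for CL8477.Contig3, -0.011 to 0.30 for CL4331.Contig1, -0.30 to 0.24 for Unigene21156 and -0.29 to 0.36 for CL4331.Contig2. Over 6 libraries they were -0.10 to 0.34 for Unigene28611, -0.087 to 0.69 for Unigene16637 and -0.11 to 0.093 for CL8477.Contig3.

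With the replicate number as a block, 0 members were called over 6 libraries. The correlations of same-numbered libraries’ deviations from their group means were -0.37, 0.01 and -0.48. They gave no sign that the numbers pair the samples, but 3 libraries per group are too few to exclude it. No paired analysis was possible over 4 libraries because the groups there share only the number 2. At this depth, members with counts near 3 give no test.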
